A study of Mus musculus with 10 samples.

Results

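Foxp3 lies on the mouse X chromosome among genes whose exons overlap its own, and this account covers Foxp3 and 4 of those neighbors: Flicr, Ppp1r3f, Ccdc22 and Gm36995. The members were chosen by name, as Foxp3 and the genes whose exons overlap it, and make up 5 of the 55809 gene rows counted in each library. RNA-seq libraries had been prepared from Treg cells of spleen and lymph nodes, 4 from R26-WT mice and 6 from R26-TIR1(F74G) mice. All mice carried the Foxp3-AID allele, in which an auxin-inducible degron (AID) is joined to endogenous Foxp3, and all received the auxin analog 5-ph-IAA for 14 days. TIR1(F74G), a mutated plant E3 ligase adaptor that binds the fusion protein when 5-ph-IAA is present and sends it to degradation, is encoded at ROSA26 in R26-TIR1(F74G) mice and missing in R26-WT mice. The ROSA26 transgene is driven by a CAG promoter behind a loxP-flanked stop that is removed by a Cre encoded in the Foxp3 allele itself. The labels do not give the age of the mice, and the study's general sort by the ZsGreen and mCherry reporters is not stated for these libraries. The question for this locus is whether its RNA changed where the Foxp3 protein was targeted.

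Foxp3 is the forkhead transcription factor that defines regulatory T cells. Its transcription in mature Treg cells is kept up by upstream and intronic enhancers, among them a demethylated element in the first intron, and Foxp3 protein itself has been described as binding there. Flicr is a long noncoding RNA transcribed on the same strand from upstream of Foxp3 and described as a modulator of Foxp3 expression. Ccdc22 encodes a subunit of the CCC complex, which works in endosomal sorting and copper transport, and Ppp1r3f encodes a subunit that directs protein phosphatase 1 to glycogen. Gm36995 is an annotated noncoding transcript of unknown role that runs from Ccdc22 to Ppp1r3f on the strand opposite to Foxp3.

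The libraries held 24158699 to 54795718 counted read pairs. Treg markers such as Il2ra, the high-affinity interleukin-2 receptor chain, at 16107 to 19666 mean normalized counts in the groups, were abundant, whereas the macrophage gene Adgre1 had group means of 0.597 and 0.744. Genes of other lymphocytes were counted at lower levels, with R26-WT and R26-TIR1(F74G) means of 1478 and 1265 for Cd8b1 and 639.6 and 459.9 for Nkg7, which mark CD8 T and NK cells, and 226 and 192 for the B cell gene Cd79a. The B cell gene Cd22 rose, from 5.07 to 15.5 normalized counts per R26-WT library to 23.6 to 273 per R26-TIR1(F74G) library (log2 fold change 2.68, adjusted p = 0.00266 in DESeq2 and 0.230 in edgeR). The 273 were in replicate 9 alone, and without that library the range was 23.6 to 51.2 and the log2 fold change 1.69 (adjusted p = 0.00271 in DESeq2). The part of Cd22 in the results below was not tested. Over the 7 Treg markers other than Foxp3, the summed normalized count was 104820 to 115211 in R26-WT and 93708 to 100896 in R26-TIR1(F74G), so that the groups did not overlap. How often sums of other genes separate in this way was not computed. None of the 7 was called by the DESeq2 test described below (1.74% over all tested genes). An unadjusted p under 0.05 was found for 3 of the 7 (6.86% over all tested genes). These were Ctla4, Tnfrsf18 and Izumo1r, with log2 fold changes of -0.31, -0.42 and -0.30. Lrrc32 (0.21) and Capg (0.01) had positive values. R26-TIR1(F74G) replicate 7 stood apart from the rest of its group in Foxp3, and the values that moved most without it are given beside the results.

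Because the counting did not use strand, and because a read pair that hit the exons of several genes equally was left out, the share of each gene's exons that no other gene covers bears on its count. In GRCm39 coordinates, Foxp3 occupied chrX:7439883-7461484 on the plus strand, and 3134 of its 4577 exon bases (68.5%) belonged to no other gene. All 1287 coding bases of its canonical transcript were among them. Its shared bases were therefore all noncoding in that transcript, 853 of them with Flicr, 590 with Ccdc22, 373 with Gm36995 and 266 with Ppp1r3f.

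Flicr occupied chrX:7439839-7447266 on the plus strand, with 2686 of 3583 exon bases (75%) of its own. Its longest own stretch, of 1485 bases, ended at chrX:7445805, directly before a Foxp3 first exon. Ppp1r3f, on the minus strand at chrX:7423535-7440522, had 2428 of 5153 exon bases (47.1%) to itself, but 691 of its 2397 coding bases (28.8%). It also shared 310 exon bases with Flicr.

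Ccdc22 and Gm36995 had few exon bases of their own, with 2957 shared between them and another 2415 bases of Gm36995 shared with Ppp1r3f. Ccdc22, on the minus strand at chrX:7460048-7471756, had 253 of 3427 exon bases (7.38%) of its own, and none of its 1881 coding bases. Gm36995, on the minus strand at chrX:7424841-7471620, had 355 of 5727 (6.20%). Among all genes 2.76% had less than 10% of their exon bases to themselves, and among the tested genes 0.104%.

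The intronic stretches that belonged to one gene alone are shown here for Ccdc22 and Gm36995, because they are the bases at which a read pair can be given to these genes and to no other. They are read 5′ to 3′ on the minus strand of GRCm39, at chrX:7462853-7462969 for Ccdc22 and at chrX:7463519-7463776 and chrX:7465576-7465672 for Gm36995, and capitals mark the first and last bases of an intron of the canonical Ccdc22 transcript.
Ccdc22, 117 bases: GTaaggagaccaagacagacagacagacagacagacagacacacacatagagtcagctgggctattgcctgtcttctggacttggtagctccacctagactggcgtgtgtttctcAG
Gm36995, 258 bases: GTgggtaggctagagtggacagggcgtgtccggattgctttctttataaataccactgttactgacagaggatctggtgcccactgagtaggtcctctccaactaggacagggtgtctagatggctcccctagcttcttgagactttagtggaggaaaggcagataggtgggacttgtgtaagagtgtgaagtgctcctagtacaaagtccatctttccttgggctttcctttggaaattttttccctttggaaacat
Gm36995, 97 bases: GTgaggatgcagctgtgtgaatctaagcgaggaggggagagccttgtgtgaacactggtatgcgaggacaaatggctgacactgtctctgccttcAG

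The 117-base and the 97-base stretches were each a whole intron of Ccdc22, with GT at the start and AG at the end, and the 258-base stretch was the 5′ part of a 744-base Ccdc22 intron. Both stretches of Gm36995 alone were thus intronic to Ccdc22, and of the 2 stretches of Ccdc22 alone 1 was intronic and the other, of 136 bases at chrX:7471621-7471756, lay in its first exon. That one reaches into an untranslated region and is not printed. In a spliced Ccdc22 messenger RNA that first-exon stretch was the only one that no other gene covered.

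For Foxp3, the coding bases around the engineered sites are shown, since the fusion and the reporter are not part of the reference genome. The AID was joined to the N terminus and the cassette for ZsGreen and iCre was placed after the stop codon, so pairs from these inserted parts could not be counted for Foxp3. The first line is chrX:7452594-7452653 and the second chrX:7459223-7459282, on the plus strand of GRCm39, with the start and the stop codon in capitals, and the third is an exon of Flicr alone at chrX:7440731-7440846, without capitals.
Foxp3, coding start: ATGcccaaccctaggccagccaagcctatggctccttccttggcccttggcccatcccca
Foxp3, coding end: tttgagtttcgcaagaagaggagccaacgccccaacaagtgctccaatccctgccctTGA
Flicr, 116-base exon: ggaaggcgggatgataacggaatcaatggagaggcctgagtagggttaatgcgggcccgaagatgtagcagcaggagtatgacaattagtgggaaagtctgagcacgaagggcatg

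**Figure D1:**
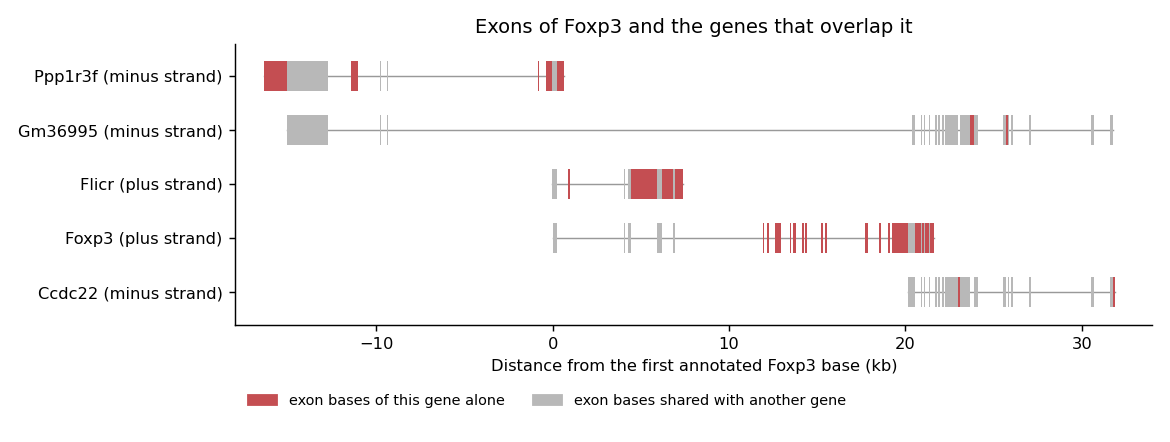
Exons of the 5 genes by distance from the first annotated Foxp3 base in kb, 1 row per gene. Red boxes are exon bases of that gene alone and gray boxes exon bases shared with at least 1 other gene. Red covers most of Flicr and the 3′ part of Foxp3, but 7.38% of the exon bases of Ccdc22 and 6.20% of those of Gm36995.

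The 5 genes differed widely in level. Counts divided by the DESeq2 size factor of the library are called normalized counts, and levels were compared between genes per kilobase of the exon bases a gene has to itself. On this scale Foxp3 stood at 2939.6 ± 925 normalized counts per kilobase (SD, n = 10), above 94.5% of the 16363 tested genes. Flicr followed at 466 ± 47.5, above 66.9% of tested genes, and was 6.31-fold below Foxp3. Ppp1r3f stood at 140.3 ± 21.4, Gm36995 at 62.8 ± 19.3 and Ccdc22 at 23.3 ± 9.17. The ranges over the 10 libraries did not overlap between Foxp3, Flicr and Ppp1r3f, and those of Ccdc22 (11 to 42.7) and Gm36995 (34.2 to 89.7) did.

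With all exon bases as the length, the order of the 5 genes was the same, at 2013, 349, 66.1, 3.90 and 1.72 normalized counts per kilobase. The value of Ccdc22 thus hung on the length used, 23.3 or 1.72, and neither can be read as the amount of its messenger RNA. Of all pairs counted for the 5 genes, Foxp3 took 81.6% to 89.9% and Flicr 7.41% to 14.6% per library.

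Foxp3 RNA was abundant in both genotypes and did not differ detectably between them. The R26-WT libraries had 9965, 11779, 6816 and 7158 normalized Foxp3 counts, and the 6 R26-TIR1(F74G) libraries had from 6778 to 16059, with a median of 8082. The groups overlapped, with 4 of the 6 R26-TIR1(F74G) libraries inside the R26-WT range, 1 just below it and replicate 7 far above it. The group means were 8929.6 ± 2366 (SD, n = 4) and 9401 ± 3415 (SD, n = 6).

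The log2 fold change of Foxp3, R26-TIR1(F74G) over R26-WT, was 0.07 with a standard error of 0.25 (DESeq2, adjusted p = 0.99996). Its 95% interval ran from 0.748-fold to 1.48-fold, and changes within it are not separated from the replicate spread. Without replicate 7 the log2 fold change was -0.15, and it was also below 0 without R26-WT replicate 3 (-0.03) or replicate 4 (-0.02). Leaving out any 1 of the 7 other libraries gave 0.06 to 0.24, highest without R26-WT replicate 2.

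Flicr was the least variable of the 5 genes within R26-TIR1(F74G), with a coefficient of variation of 7.39%. Its normalized counts were 1410.2, 1495.5, 1221 and 1177 in R26-WT and 1099.9 to 1323 in R26-TIR1(F74G), with a median of 1197. None of the 6 R26-TIR1(F74G) libraries was above the R26-WT range and 3 were below it. The means were 1326 ± 152 (SD, n = 4) and 1200.0 ± 88.7 (SD, n = 6), and the log2 fold change of -0.14 (SE 0.11) did not pass the test (DESeq2, adjusted p = 0.99996), with a 95% interval from 0.777-fold to 1.05-fold. Without R26-WT replicate 2 it was -0.08.

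Ppp1r3f, the phosphatase subunit, had 349.6, 345, 295 and 309 normalized counts in R26-WT and 284 to 445 in R26-TIR1(F74G), with a median of 323. In R26-TIR1(F74G), 2 libraries, replicates 5 and 7, were above all R26-WT libraries and 1 was below. The means of 325 ± 27.1 (SD, n = 4) and 351 ± 63.8 (SD, n = 6) differed by 0.12 on the log2 scale (SE 0.16, adjusted p = 0.99996 in DESeq2), with a 95% interval from 0.872-fold to 1.35-fold. The log2 fold change was 0.04 without R26-TIR1(F74G) replicate 7, 0.06 without replicate 5 and 0.07 without R26-WT replicate 3.

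Gm36995 had raw counts of 8 to 40 pairs. Its normalized counts were 31.8, 27.5, 17.1 and 23.7 in R26-WT and 12.2 to 29.6 in R26-TIR1(F74G), with a median of 20.7, and 3 of the 6 R26-TIR1(F74G) libraries were below the R26-WT range. The log2 fold change was -0.28 (SE 0.36, DESeq2 adjusted p = 0.99996), and the interval, from 0.504-fold to 1.35-fold, was the widest of the 4 members tested. Leaving out 1 R26-WT library gave log2 fold changes from -0.43 (replicate 3) to -0.14 (replicate 1), and leaving out 1 R26-TIR1(F74G) library from -0.42 (replicate 7) to -0.15 (replicate 10).

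Ccdc22 had 4, 5, 7 and 7 raw pairs in R26-WT and 3 to 10 in R26-TIR1(F74G), 5.9 on average over all libraries, and so fell under the minimum mean count of 10 and was not tested with the others. Its normalized counts were 4.93 ± 1.24 (SD, n = 4) and 6.52 ± 2.75 (SD, n = 6), with 3 of the 6 R26-TIR1(F74G) libraries above the R26-WT range and 1 below it. At a handful of pairs per library a difference between the groups was not detectable, and DESeq2 without the filter gave a log2 fold change of 0.40 (SE 0.61, adjusted p = 0.9996).

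Of the 5 members, 4 were tested and 0 were called by DESeq2, edgeR or limma voom, and 0 had an unadjusted DESeq2 p under 0.05. Over all tested genes DESeq2 called 284 of 16363, or 1.74%, 229 of them higher and 55 lower in R26-TIR1(F74G), whereas edgeR called 61 (0.373%) and limma voom 80 (0.489%). In bulk samples a lower number of transcribing cells and less RNA per cell cannot be told apart. The ZsGreen reporter is transcribed from the Foxp3 allele, so a sort on it, where used, would select cells that transcribe the locus in both groups, and its part in the Foxp3 values was not tested.

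**Figure D2:**
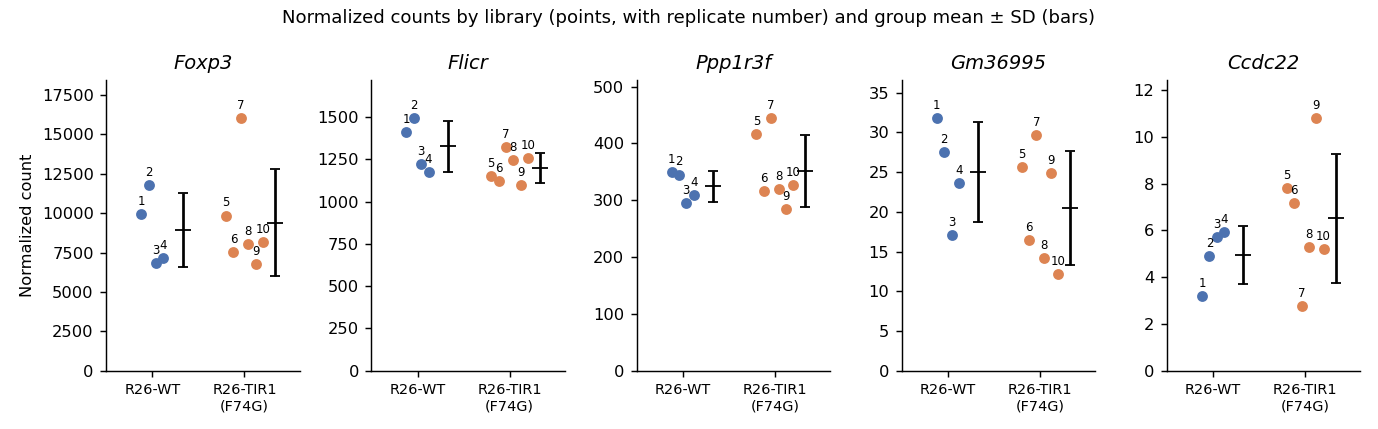
Normalized counts of the 5 genes (vertical axes, each from 0) in the 4 R26-WT and 6 R26-TIR1(F74G) libraries. Points are libraries with their replicate number, and bars show the group mean ± SD. The groups overlap in each gene, and replicate 7 is the highest library of its group for Foxp3 (16059), Flicr (1323), Ppp1r3f (445) and Gm36995 (29.6) and the lowest for Ccdc22 (2.78).

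Within a library, the count of a member relative to that of Foxp3 does not depend on the size factors. Flicr made up 15.3 ± 2.33% of the Foxp3 count in the 4 R26-WT libraries (mean ± SD) and 13.7 ± 3.10% in the 6 R26-TIR1(F74G) libraries, where replicate 7 was lowest at 8.24%. The log2 ratio differed by -0.19 between the groups, with an adjusted p of 0.664 in a two-sided exact permutation test over the 210 assignments of libraries to groups, 3 ratios compared. Without R26-TIR1(F74G) replicate 7 the difference was -0.05, and without R26-WT replicate 3 it was -0.11. Ppp1r3f made up 3.77 ± 0.676% and 3.90 ± 0.560%, with a difference in the log2 ratio of 0.05 (exact permutation test, adjusted p = 0.70) that became -0.06 without R26-WT replicate 2. Gm36995 made up 0.284 ± 0.0486% and 0.226 ± 0.0790%, a difference of -0.36 (exact permutation test, adjusted p = 0.557). The proportions of these overlapping genes did not differ detectably with genotype.

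The chromosomal neighborhood was examined next. Of 27 genes with an exon within 200 kb of Foxp3, 15 had enough counts to be tested, 11 of them genes other than the members, and 0 were called by DESeq2 (1.74% over all tested genes). The 11 log2 fold changes ran from -0.28 to 0.33 with a median of 0.08, and 8 were positive. Over all tested genes the median was 0.00.

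Among the 11, 1 had an unadjusted p under 0.05 (6.86% over all tested genes). This was Syp, which encodes the vesicle protein synaptophysin, at 286 mean normalized counts in R26-WT and 349 in R26-TIR1(F74G), a log2 difference of 0.29 (SE 0.14) with an adjusted p of 0.640 in DESeq2. Beyond Syp, on the side of Ccdc22, the next tested genes were Prickle3, a planar polarity gene, with a log2 fold change of 0.09, and Plp2, a membrane proteolipid gene, with 0.07. Gpkow, a splicing factor gene, had 0.01. Farther on, Wdr45, an autophagy gene, had -0.14, Praf2 -0.14, the lysosomal transcription factor gene Tfe3 0.08 and Gripap1 0.10. On the side of Ppp1r3f, the deubiquitinase gene Usp27x had 0.11, and the clones Gm14379 and 2010204K13Rik had 0.33 and -0.28. Of the 22 other genes in the window 6 were listed at 0 in all 10 libraries.

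**Figure D3:**
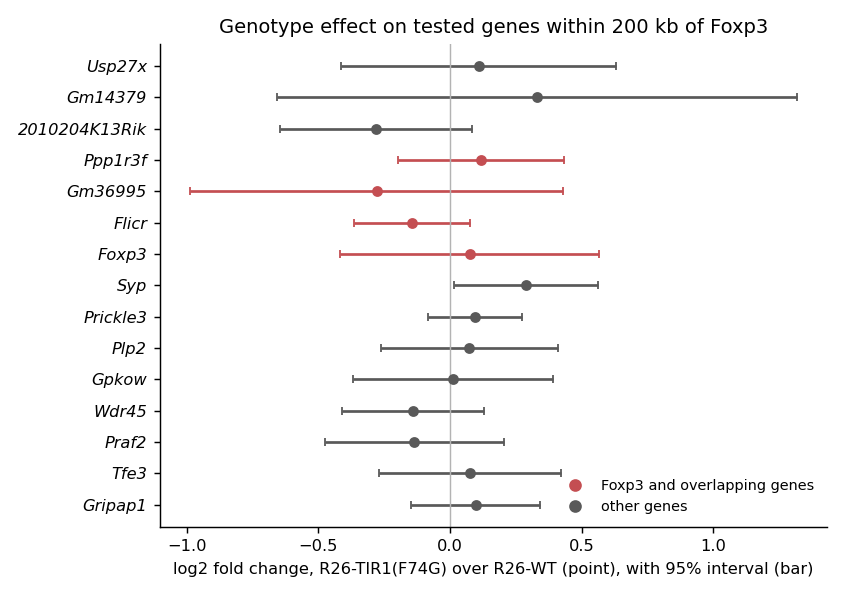
DESeq2 log2 fold change of R26-TIR1(F74G) over R26-WT (horizontal axis) for the 15 tested genes within 200 kb of Foxp3, in chromosomal order from top to bottom. Points are estimates and bars 95% intervals, red for Foxp3 and its overlapping genes and gray for others. The interval of Syp lies above 0 without adjustment, and those of the 14 other genes include 0.

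Genes that act on the locus or on the proteins of its members were read from lists. Their counts stand against all tested genes, of which 1.74% were called, 6.86% had an unadjusted p under 0.05 and 49.9% had a negative log2 fold change, so that a count of 0 in lists of this size says little about the list. Of 23 transcription factors and cofactors described at Foxp3, 23 were tested and 0 were called (DESeq2), with log2 fold changes from -0.54 to 0.26 and a median of 0.00. The 4 with an unadjusted p under 0.05 were Cebpb at -0.54 (DESeq2 adjusted p = 0.0763), the forkhead factors Foxo1 at -0.27 (0.145) and Foxo3 at -0.36 (0.388), and Runx3 at 0.26 (0.248). Runx3, a Runt-domain factor that works with Cbfb, stood at 1659 ± 25 (SD, n = 4) against 1983 ± 178 (SD, n = 6) normalized counts, and its lowest R26-TIR1(F74G) library (1731) was above the highest R26-WT library (1690.4). Foxo1 and Cebpb did not overlap either, in the lower direction, with R26-TIR1(F74G) values up to 19693 and 805 and R26-WT values from 21028 and 809.7. These 4 factors were named for their small p, and the share of all tested genes whose groups do not overlap was not computed.

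Of 7 genes for DNA methylation and demethylation 1 was called (1.74% over all tested genes). Uhrf1, which brings the maintenance methyltransferase to replicating DNA and is also abundant in dividing cells, rose from 481 ± 141 (SD, n = 4) to 1103 ± 323 (SD, n = 6) normalized counts, a log2 fold change of 1.20 (SE 0.24) with an adjusted p of 8.9e-05 in DESeq2 and 0.0570 in edgeR. The partner methyltransferase gene Dnmt1 had 0.33 and the demethylase gene Tet1 0.12, neither passing the test.

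None of 10 genes for enzymes that modify Foxp3 protein was called, the smallest unadjusted p being that of the deubiquitinase gene Usp21 (log2 fold change -0.11). None of the 8 host genes of the SCF ubiquitin ligase, into which TIR1 assembles, was called. Uba3, a subunit of the enzyme that activates Nedd8, had -0.28 (DESeq2 adjusted p = 0.248), and the adaptor Skp1 had -0.04. The paralogs Foxp1 (-0.08) and Foxp4 (-0.03) were not called, and Foxp2 was at 0 in all libraries.

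Of the 15 partners of Ccdc22 in the CCC complex and the linked retriever complex 0 were called, 12 with a negative log2 fold change, and the median was -0.06. The example with the smallest p, Vps35l, had 0.15. Of the phosphatase and glycogen genes around Ppp1r3f, 18 were in the files, 13 were tested and 0 were called. The glycogen phosphorylase gene Pygl had -0.49 at mean normalized counts of 36.5 and 26.4, and the sister subunit Ppp1r3b 0.27.

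Although genotype did not separate the members, libraries ranged from 6778 to 16059 normalized Foxp3 counts, and the overlapping genes were compared with it across the 10 libraries. Correlations were of log2(normalized count + 1), with permutation tests of 100000 resamples and adjustment over the 6 pairs of members. Foxp3 and Ppp1r3f varied together, with Pearson's r = 0.88 (permutation test, adjusted p = 0.00768) and Spearman's rho = 0.95 (adjusted p = 6.6e-04), and r was 0.90 without the 2 libraries farthest from the median of Foxp3. Within the 6 R26-TIR1(F74G) libraries r was 0.92 (exact permutation test, adjusted p = 0.00833) and rho 1.00 (adjusted p = 0.0167). The 4 R26-WT libraries were too few for a correlation.

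The relation of Foxp3 with Ppp1r3f weakened without replicate 7, to r = 0.77 (permutation test, adjusted p = 0.0581). When the trend of counts on gene length was removed from each library it was r = 0.62 (permutation test, adjusted p = 0.203).

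Foxp3 and Flicr had r = 0.65 (permutation test, adjusted p = 0.124) and rho = 0.77 (adjusted p = 0.0374), and r = 0.54 without the 2 farthest libraries. With group means subtracted, r was 0.79 (permutation test, adjusted p = 0.0163). The plot of Foxp3 and Flicr shows the libraries of R26-WT replicates 1 and 2 with the highest Flicr counts. R26-TIR1(F74G) replicate 7, the only library of its group with more Foxp3 than these, had less Flicr. The pairs of Gm36995 with Foxp3 (r = 0.56), Ppp1r3f (r = 0.47) and Flicr (r = 0.34), and Flicr with Ppp1r3f (r = 0.34), had permutation adjusted p of 0.184 to 0.338. Where pairs are shared or antisense the counts cannot tell the genes apart, and their part in these correlations was not tested.

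The level of Foxp3 followed a property of the whole library. A long-gene index was computed per library as the median log2 normalized count, relative to each gene's mean, of the 5259 tested genes with over 5 kb of exons minus that of the 3527 under 1.5 kb. It ran from -0.51 to 0.39 in R26-WT and from -0.30 to 0.55 in R26-TIR1(F74G), with means of -0.08 and 0.04 (two-sided exact permutation test, p = 0.638). Foxp3 correlated with it at r = 0.93 (adjusted p = 8.0e-05 over 8 library properties, from the smallest p that the 100000 permutation resamples can give) and rho = 0.95, and r was 0.93 without the 2 libraries farthest from the median. Leaving out any 1 library kept r between 0.920 and 0.955.

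Among the other members Ppp1r3f followed the index at r = 0.81 (permutation test, adjusted p = 0.00720), Flicr at r = 0.69 (adjusted p = 0.0399) and Gm36995 at r = 0.41 (adjusted p = 0.229). Foxp3 ran against the summed count of T cell markers, at r = -0.90 (permutation test, adjusted p = 5.2e-04). Within that list 5 of the 6 genes ran against it, with r from -0.94 (Lck) to -0.78 (Cd3e), whereas the coreceptor gene Cd4 ran with it at r = 0.71, as a description without a test. The total count (r = 0.10), the Treg markers without Foxp3 (r = -0.05), B cell markers (r = -0.57), CD8 and NK markers (r = -0.69), myeloid markers (r = 0.49) and erythroid markers (r = 0.33) gave permutation adjusted p of 0.0669 to 0.897. The B cell relation passed without R26-TIR1(F74G) replicate 7 (r = -0.74, permutation test, adjusted p = 0.0468), and that of CD8 and NK markers without R26-WT replicate 1 (r = -0.75, adjusted p = 0.0498) or R26-TIR1(F74G) replicate 6 (r = -0.78, adjusted p = 0.0315). Per the labels, RNA integrity numbers differed between samples but are not given by sample, and their part in the index was not tested.

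Replicate 7 had the highest index, 0.55, together with the highest Foxp3. It was the highest of the 10 libraries for 45.3% of the genes over 5 kb, 8.51% of those under 1.5 kb and 23.6% of all tested genes. Its high Foxp3 was shared with many genes over 5 kb, although Foxp3 itself has 4577 exon bases.

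**Figure D4:**
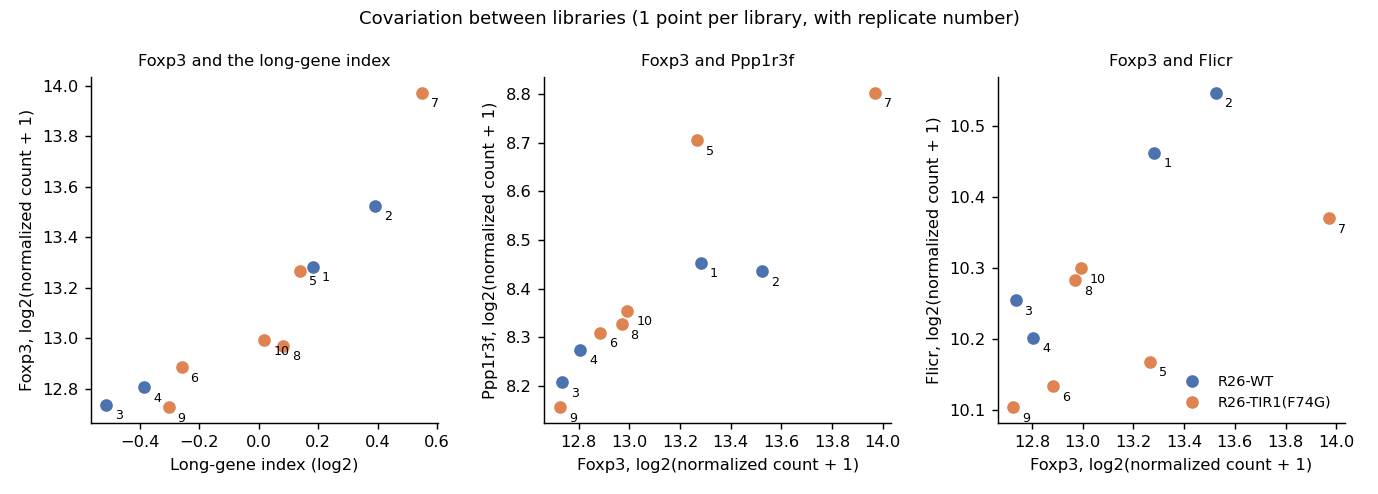
Foxp3 against the long-gene index (left), Ppp1r3f against Foxp3 (middle) and Flicr against Foxp3 (right), each gene as log2(normalized count + 1), 1 point per library with its replicate number. Blue points are R26-WT and orange points R26-TIR1(F74G). The points rise along a line in the left panel (r = 0.93) and scatter more in the right panel (r = 0.65).

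When the index was added to the DESeq2 model as a covariate, an alternative chosen after the data were seen, the standard error of Foxp3 dropped to 0.09. The log2 fold change was then -0.08, with a 95% interval of -0.26 to 0.10 (adjusted p = 0.848), narrower than without the index. Flicr had -0.18 (SE 0.06), with an unadjusted p of 0.00299 and a DESeq2 adjusted p of 0.0613, and Ppp1r3f 0.05 (SE 0.11, DESeq2 adjusted p = 0.935). Of the 4 members tested 0 were called in this fit, which called 742 of all 16363 tested genes, or 4.53%, 476 of them higher and 266 lower.

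The genes whose pattern was most like that of Foxp3 were sought among 10598 genes that averaged 50 or more normalized counts and had a gene symbol, by Pearson's r over the 10 libraries, as a description without a test. The 10 highest were Spg11, Smurf1, Trip12, Snrnp200, Myh9, Tmem131, Sptbn1, Uhmk1, Cnot1 and Bag6, with r from 0.996 to 0.993. Smurf1 and Trip12 encode ubiquitin ligases, Snrnp200 a spliceosomal helicase, Cnot1 the scaffold of the deadenylase complex, and Myh9 and Sptbn1 cytoskeletal proteins. They had from 6215 (Bag6) to 17492 (Sptbn1) exon bases, and each was highest in replicate 7. Sptbn1 had 20491 normalized counts there and from 4247 to 10496 in the 9 others.

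The 5 lowest were Ercc1, Malsu1, Dph3, Alad and Ssb, with r from -0.982 to -0.974 and exons of 1871 to 3777 bases. Without replicate 7 none of these 5 was among the 5 lowest, and with the length trend removed 1 was, whereas 8 and 7 of the 10 highest were again among the 10 highest. Genes over 5 kb had a median r with Foxp3 of 0.72, those of 1.5 to 5 kb -0.40 and those under 1.5 kb -0.82. A value over 0.9 was reached by 1199 genes, 1051 of them over 5 kb. Foxp3 itself, with 4577 exon bases, falls in the class of 1.5 to 5 kb, where 144 of 5087 genes (2.83%) reached that value. With the length trend removed, the 10 highest genes named above had r from 0.982 (Bag6) to 0.992 (Spg11). In this ranking Ppp1r3f came at place 1419 and Flicr at place 3384, so that many genes elsewhere in the genome resembled Foxp3 more closely than its overlapping neighbors did.

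**Figure D5:**
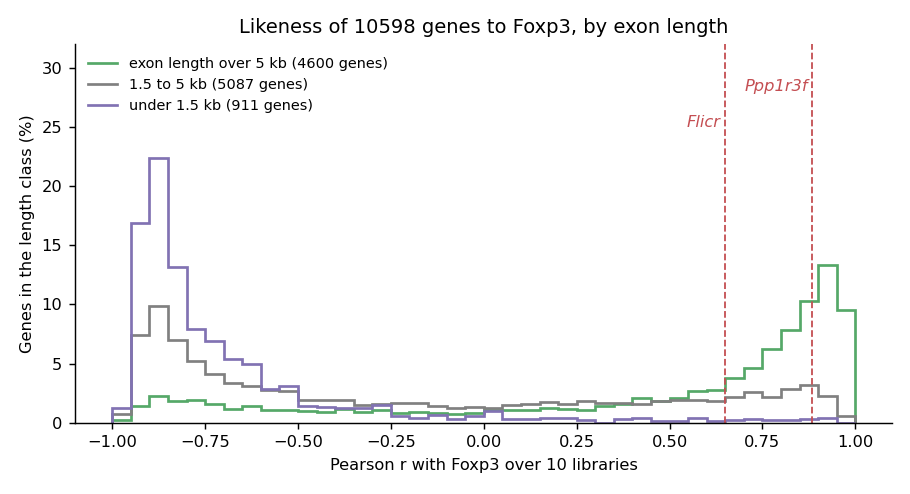
Distribution of Pearson's r with Foxp3 over 10 libraries (horizontal axis) for 10598 genes, as the percentage of genes in each class of exon length (vertical axis). Lines are genes over 5 kb (green), of 1.5 to 5 kb (gray) and under 1.5 kb (purple), and dashed lines mark Flicr (0.65) and Ppp1r3f (0.88). Genes over 5 kb have a median r of 0.72 with quartiles of 0.08 and 0.89, and genes under 1.5 kb a median of -0.82.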

How the data were processed

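RNA-seq of Treg cells was examined in 10 libraries, made with SMART-Seq v4 and without molecular identifiers, so that counting error is a lower limit. The deposited values are raw counts of read pairs per gene name. They were made by the authors with featureCounts 2.1.1 and GENCODE M30 (GRCm39) per the file headers, from primary pairs with both mates on 1 chromosome at mapping quality 30 or more, with no strand option and no assignment of a pair to several genes. The labels name Bowtie2 and the study's methods STAR for alignment. Depth was 24158699 to 54795718 pairs, and nothing states that replicates came from separate mice, so p-values measure the spread between these libraries.

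Exon bases of each gene alone were computed from the exon coordinates in the count files. Transcripts, coding bases and sequences came from GENCODE M39 and the genome of the same build.

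The 16363 genes that averaged 10 or more counts were tested with DESeq2 1.42.0 (R 4.3.3), genotype as the only term, two-sided Wald test, Benjamini-Hochberg adjusted p under 0.05, over all 10 libraries. Intervals are the estimate ± its 95% normal limits. Correlations and ratios (0.5 added to each count) were tested by permutation. The alternatives were edgeR 4.0.16, limma 3.58.1 (voom with quality weights), TMM factors, no filter, removal of the trend on gene length, other offsets, leaving out each library, and the long-gene index as a covariate, which was added after the data were seen. The fits were tested on simulated data first.

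The members and gene lists were chosen with earlier results of these data known. Named genes are the members, tested genes within 200 kb, per list the called genes or up to 4 with the smallest p, and the 10 genes most like and 5 least like Foxp3 among symbols that are no clone names.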

Additional observations from a re-analysis of the deposited data

Results flagged for a closer look

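Of 54 sets of values (each gene, ratio or marker sum within a group), 5 held a library far from the others by Dixon's criterion, where chance would flag about 2.7. Of these, 4 were R26-TIR1(F74G) replicate 7. Foxp3 had 16059 normalized counts there, against 9851 in the next library. The log2 ratio of Ppp1r3f to Foxp3 was -5.17, against -4.64 in the next library. Gm14379, about 200 kb upstream, had 3.70 normalized counts and was the lowest of its group, as was 2010204K13Rik with 116.7. Replicate 7 also had the highest long-gene index (0.55) and its part in these values was not tested. The remaining library was R26-TIR1(F74G) replicate 9, with a summed B cell marker count of 8.92 on the log2 scale, against 8.07 in the next. Cd22, a B cell receptor gene, made up 273 normalized counts of that sum.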

How the results depend on the processing

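No paired analysis was possible because R26-WT and R26-TIR1(F74G) libraries carry different replicate numbers. None of the 4 tested members passed the test under any tool, scaling, filter or left-out library, nor did Ccdc22 in DESeq2 without the filter, the one fit that could include it, and Flicr, Ppp1r3f and Gm36995 kept their direction in each. The Foxp3 log2 fold change was -0.15 to 0.24 without 1 library (below 0 without R26-WT replicate 3 or 4 or R26-TIR1(F74G) replicate 7) and -0.077 with the long-gene index. Over all tested genes 61 were called by edgeR, 80 by limma voom, 742 with the index as a covariate and 187 to 346 without 1 library, lowest without R26-WT replicate 4. Of the listed genes other than cell type markers 1 was called (Uhrf1), against 0 by edgeR, 2 with the length trend removed, 7 with the index and 1 to 2 without 1 library. With the length trend removed the log2 fold change of Ppp1r3f was 0.07, and by limma voom that of Gm36995 was -0.42. The Flicr to Foxp3 ratio differed by -0.27 to -0.05 without 1 library. The Ppp1r3f to Foxp3 ratio differed by -0.062 to 0.15 on the log2 scale without 1 library.

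The r of Foxp3 with Flicr was 0.79 with group means subtracted. That of Foxp3 with Ppp1r3f was 0.62 with the length trend removed and 0.773 to 0.959 without 1 library, and that of Flicr with Ppp1r3f was -0.089 with the length trend removed. Without 1 library, the r of Foxp3 was -0.26 to 0.21 with Treg markers, -0.783 to -0.461 with CD8 and NK markers (past the threshold without R26-WT replicate 1 or R26-TIR1(F74G) replicate 6), -0.744 to -0.503 with B cell markers (past it without replicate 7) and -0.019 to 0.226 with the total count. The causes were not tested. Of the 10 genes most like Foxp3, 6 were shared with group means subtracted, 7 with the length trend removed and 8 without replicate 7, and of the 5 least like it 4, 1 and 0. The depth of Ccdc22, at most 10 pairs per library, limits any statement on it.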
